A study of Mus musculus with 675 samples.

Results

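The genes described here are 4 Notch receptors (Notch1, Notch2, Notch3, Notch4), 2 of their ligands (Jag1, Dll4) and 4 target genes (Hes1, Hey1, Hey2, Heyl) in single cells of the mouse aorta. They are the 10 rows, of 46517 gene identifiers in the count table, whose Ensembl identifiers map to these symbols on GRCm38, and all 10 were found. The table holds 675 cells of male C57BL/6 mice labelled 10 weeks old, sorted into wells of 384-well plates and sequenced by Smart-seq2, a full-length protocol without molecular identifiers. The cells came as 2 pools of 2 mice each, pool A and pool B, and no treatment or mutant allele is given for any animal. The tissue label reads aorta, whereas the extraction protocol names the heart and the design text gives an age range of 8 to 21 weeks. The study's title calls it an inventory of smooth muscle cells, so the question here was which vessel wall cells held which Notch genes and whether Notch3 and its targets moved together from cell to cell.

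Notch receptors sit in the membrane of a receiving cell and are cut when a ligand on a neighbouring cell binds them. The freed intracellular part enters the nucleus, joins the DNA-binding protein RBPJ and switches on genes of the Hes and Hey families, which encode transcriptional repressors. In arteries, endothelial cells are known to present Jagged and Delta-like ligands, Notch1 and Notch4 are known as endothelial receptors, and Notch3 is known as the receptor of vascular smooth muscle and pericytes.

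On GRCm38 the receptors lie at chr2:26457903-26516663 (Notch1, minus strand), chr3:98013527-98150361 (Notch2, plus), chr17:32120820-32166852 (Notch3, minus) and chr17:34564268-34588503 (Notch4, plus). The ligands lie at chr2:137081456-137116644 (Jag1, minus) and chr2:119325784-119335962 (Dll4, plus). The targets lie at chr16:30064384-30067796 (Hes1, plus), chr3:8663359-8667256 (Hey1, minus), chr10:30832359-30842801 (Hey2, minus) and chr4:123233556-123249875 (Heyl, plus).

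The RBPJ recognition letters were looked for in the promoters of these genes, because the targets are read through that factor. RefSeq promoter windows of 300 bases on GRCm38.p6, from 250 bases before to 50 bases after each gene's RefSeq start, were matched for 7 of the 10 genes; Hes1, Hey1 and Heyl were not matched. The motif GTGGGAA, searched on both strands (TTCCCAC on the other), was present in 2097 of 32851 windows, or 6.38%. Its shorter core TGGGAA, which is contained in it, was present in 25.6% of windows. Of the 7 matched genes Hey2 held the longer motif, with 2 matches, and 0.256% of all windows held 2 or more. The windows of Notch1, Notch2, Notch3, Notch4, Jag1 and Dll4 held neither form. The Hey2 stretch is shown from the first base of its window to the end of the second match, chr10:30842781-30843033 on the minus strand, with the matches in capitals. The first match lies on the opposite strand, and the second starts 4 bases before the RefSeq start on the gene's own strand. That RefSeq start lies inside the GENCODE span of Hey2 given above, so by the latter annotation the second match is within the gene.
Hey2: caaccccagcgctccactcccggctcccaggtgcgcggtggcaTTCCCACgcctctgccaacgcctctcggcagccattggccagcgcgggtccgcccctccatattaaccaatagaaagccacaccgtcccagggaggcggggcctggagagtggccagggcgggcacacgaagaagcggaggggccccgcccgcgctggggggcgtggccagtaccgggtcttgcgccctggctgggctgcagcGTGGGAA

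Total counts ran from 51886 to 713700 per cell. Clustering gave 575 smooth muscle-like wells (83.9% of pool A and 86.7% of pool B), 67 fibroblast-like wells (39 and 28) and an endothelial-like cluster of 33 wells (20 and 13), each well holding a sorted cell, named from marker genes and built without any Notch gene. Levels below are CPM, a gene's counts scaled to 1000000 counts of all genes, summed over the wells of a class in a pool, so a low level from few cells with the gene cannot be told apart from a low level in each cell. Acta2, smooth muscle actin, reached 6649 and 5766 CPM in smooth muscle-like wells of pools A and B, and Myh11, smooth muscle myosin, reached 4252 and 3370 CPM. Dcn, the matrix proteoglycan decorin, stood at 6689 and 6624 CPM in fibroblast-like wells and at 45.3 and 64.5 CPM in smooth muscle-like wells. Smooth muscle transcripts were also counted in the fibroblast-like class: Acta2 in fibroblast-like wells was 17.2% and 39.1% of its smooth muscle level, and Myh11 was 2.50% and 5.97%. In 10 wells, 9 of them smooth muscle-like, at least 3 markers of a cell type foreign to the wall reached 100 CPM.

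The endothelial-like cluster of 33 wells was not uniform, and this bears on every Notch value in it. A finer clustering divided it into 27 wells that kept the endothelial name (16 in pool A, 11 in pool B) and 6 wells that were too few to be named. In the 27 wells the endothelial cadherin Cdh5 stood at 1259 and 331.4 CPM and all 9 endothelial markers reached 100 CPM. In the 6 wells Cdh5 was at 0 and none of the 9 reached 100 CPM, with summed endothelial markers of 68.8 and 15.2 CPM. These wells instead held Acta2 at 6104 and 5107 CPM, all 8 smooth muscle markers above 100 CPM, and Rgs5, a regulator of G protein signalling known from pericytes, at 2682 and 2629 CPM. Fibroblast markers were also counted in them, 5 of 8 at 100 CPM or more, with sums of 11160 and 4547 CPM beside 3722 and 3712 CPM in smooth muscle-like wells. The 6 pericyte markers, Rgs5 among them, summed to 3862 and 3854 CPM there and to 1651 and 1250 CPM in smooth muscle-like wells. Of these markers 3 and 4 reached 100 CPM there, and 4 did in smooth muscle-like wells of each pool. Higd1b of this list was at 290.3 ± 290.3 CPM (SD, n = 2 pools) there and at 0.958 ± 1.24 CPM in smooth muscle-like wells. It was not in each of these wells, at 350.5, 0, 0 and 0 CPM in pool A and at 161.7 and 739.1 CPM in pool B. Kcnj8 of this list was lower, at 61.1 and 4.55 CPM there and at 81.5 and 91.1 CPM in smooth muscle-like wells. They are called the 6 unnamed wells below. Levels given for endothelial-like wells are those of the 27 wells, and levels that include the 6 are given as those of the cluster. The 27 were not uniform either: clustering on all genes but those of the Notch lists set 5 of them apart (2 in pool A, 3 in pool B), led by Cd24a.

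Among the receptors, Notch2 and Notch3 led in smooth muscle-like wells, and their order per kilobase was not fixed. Per kilobase of exon, Notch2 stood at 5.52 ± 1.85 CPM (SD, n = 2 pools) and Notch3 at 4.68 ± 1.21 CPM, with overlapping pools. Notch1 followed at 1.31 ± 0.54 CPM per kilobase and Notch4 at 0.180 ± 0.089 CPM per kilobase, each below the one before it in both pools. The leading receptors were spread differently over cells. Their levels per kilobase overlapped, but their CPM did not, at 45.5 and 73.6 for Notch2 and 44.8 and 30.9 for Notch3. A share of cells with a count also rises with CPM, which was close between them in pool A only. Notch2 was counted in 82.8% of smooth muscle-like wells of pool A and 77.2% of pool B. Notch3 was counted in 40.9% (95% exact interval 35.4 to 46.6) and 33.7% (28.1 to 39.7). After each cell was thinned to 50000 counts the shares were 55.2% and 47.6% for Notch2 and 27.3% and 17.6% for Notch3. Notch3 was therefore the receptor with the more uneven counts: its highest cell reached 2892 CPM in pool A, and in pool B the highest cell alone carried 16.6% of all Notch3 counts, against 4.598% for Notch2. Intervals and floors here and below cover counting error only, since without molecular identifiers several reads can stem from the same molecule.

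**Figure D1:**
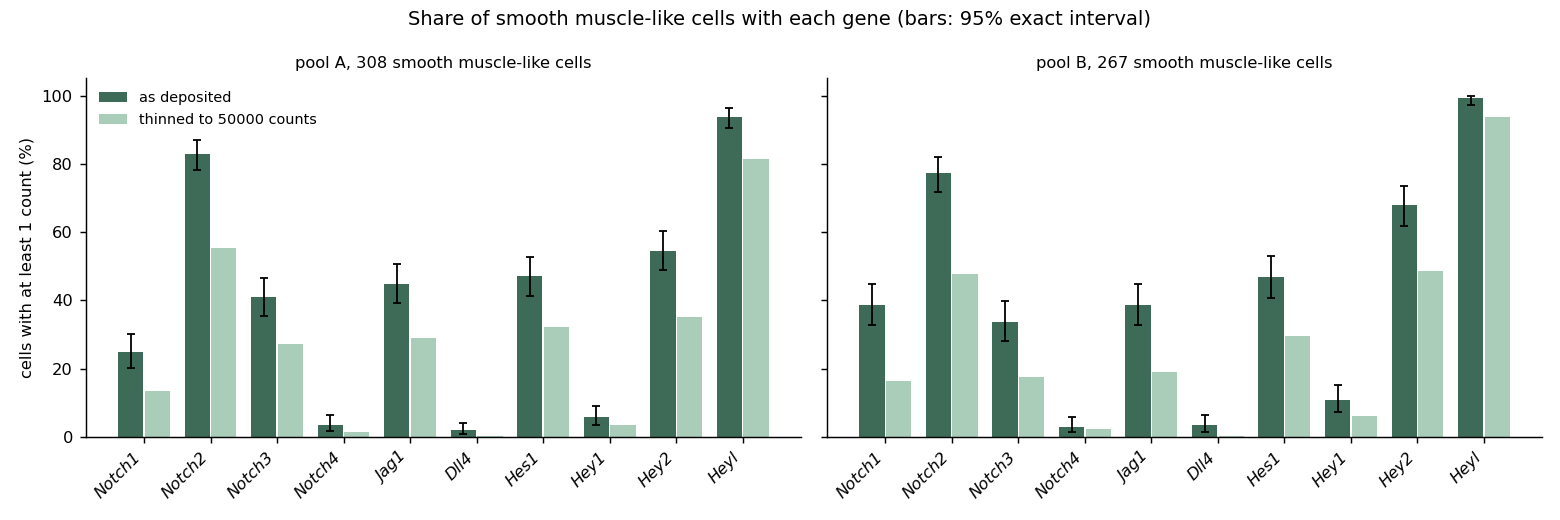
Share of smooth muscle-like wells with at least 1 count of each gene, in percent, in pool A (left) and pool B (right). Dark bars are counts as deposited with 95% exact binomial intervals and light bars are cells thinned to 50000 counts; Heyl and Notch2 have the tallest bars in both pools, and Dll4 and Notch4 the lowest.

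Counted together, the receptors left few smooth muscle-like wells without any. Of 575 wells, 7.83% had no receptor count, 43.5% had counts of 1 receptor, 37.6% of 2, 10.8% of 3 and 0.348% of all 4. Notch2 and Notch3 were both counted in 29.9%. At thinned depth both were counted in 14.3% of pool A cells and 9.36% of pool B cells, beside products of the separate shares of 15.1% and 8.37%. The measured shares lay below that product in pool A and above it in pool B.

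Notch3, the receptor tied to mural cells, had its highest level in the 6 unnamed wells. These lay outside the smooth muscle-like class as clustered here, but inside it when all genes but those of the Notch lists were clustered. In smooth muscle-like wells it stood at 44.8 CPM in pool A and 30.9 CPM in pool B. In fibroblast-like wells it stood at 2.40 and 9.25 CPM, and 1 cell carried 83.8% of the pool B counts. In the endothelial-like cluster it stood at 375 and 186.7 CPM. All 6 unnamed wells held Notch3: 1816, 918, 212.6 and 1442 CPM in pool A and 381 and 726 CPM in pool B. Summed, they stood at 1161 and 580.5 CPM, above the smooth muscle-like class in both pools. In the 27 endothelial-like wells Notch3 summed to 130 and 63.5 CPM, and 1 well in each pool carried 99.5% and 95.5% of it. Both of these wells also had Rgs5 at 100 CPM or more, as had 6 of the 27. The part of mural RNA in these endothelial-like wells was not tested. In the whole cluster 8 wells had at least 100 CPM of Notch3, and 6 of these had no Cdh5.

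Notch2, the close relative that smooth muscle also uses, was nearly missing from the endothelial-like cluster. It reached 45.5 and 73.7 CPM in smooth muscle-like wells and 18.1 and 87.5 CPM in fibroblast-like wells, ranges that overlap. In the cluster it stood at 2.50 and 2.17 CPM, from 11 and 6 counts, and no well reached 100 CPM. The 6 unnamed wells, rich in Notch3, held 4 counts of Notch2 in all, a level of 3.82 CPM in pool A and 0 in pool B, where 3 counts would have been 4.55 CPM. The smooth muscle-like class and the 6 unnamed wells both carried contractile genes, and their pools did not overlap in either Notch2 or Notch3; these differences were not tested.

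Notch1, the widely used receptor of developing and adult endothelium, stood at 392 and 460 CPM in the 27 endothelial-like wells. It reached 13.2 and 24.1 CPM in smooth muscle-like wells and 10.2 and 77.96 CPM in fibroblast-like wells. In the 6 unnamed wells it was at 504, 0, 437 and 199.1 CPM in pool A and at 0 in both wells of pool B. Notch4, whose expression is largely known from endothelium, stood at 278.5 and 42.2 CPM in the 27 wells and at no more than 6.25 CPM in the smooth muscle-like and fibroblast-like classes of either pool. Of the 27 wells, 22 had Notch1 or Notch4 at 100 CPM or more: 17 had Notch1, 10 had Notch4 and 5 had both.

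**Figure D2:**
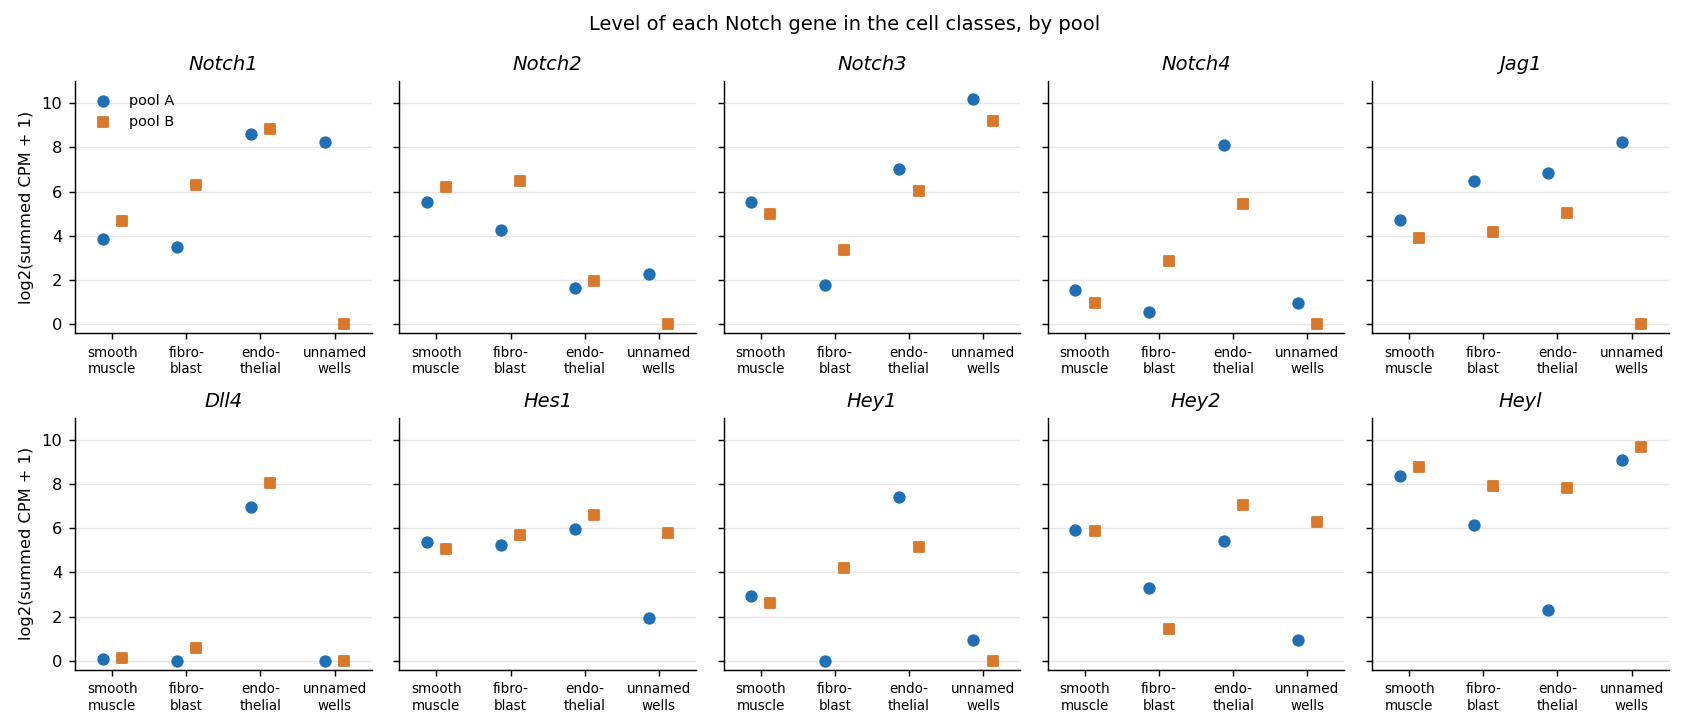
Level of each of the 10 genes as log2(summed CPM + 1) in smooth muscle-like wells, fibroblast-like wells, the 27 endothelial-like wells and the 6 unnamed wells; circles are pool A and squares pool B. Dll4 stands apart in endothelial-like wells, Notch3 is highest in the unnamed wells, Notch2 is low in both of the latter groups, and Heyl is at 327.3 and 442 CPM in smooth muscle-like wells.

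The ligands divided by class. Dll4, a Delta-like ligand known from arterial endothelium and sprouting tip cells, stood at 124.1 and 261.7 CPM in the 27 endothelial-like wells, where 11 wells reached 100 CPM. All 968 of its counts in the cluster lay in these 27 wells and none in the 6 unnamed wells. Smooth muscle-like wells of both pools together held 15 Dll4 counts, 0.0659 and 0.103 CPM, each in a different cell and never more than 1 per cell. Fibroblast-like wells held 0 and 2 counts. Jag1, the Jagged ligand made by endothelium and smooth muscle, was found in every class. It reached 25 and 13.97 CPM in smooth muscle-like wells, where 44.8% and 38.6% of cells had a count. It stood at 89.5 and 17.2 CPM in fibroblast-like wells and at 112.1 and 31.8 CPM in the 27 endothelial-like wells. In all 3 of these classes Jag1 was at its higher level in pool A. In smooth muscle-like wells Jag1 per kilobase was 3.34 ± 1.34 CPM (n = 2 pools) and overlapped Notch3. At 100 CPM, 6 endothelial-like wells had Jag1, 11 had Dll4 and 1 had both, so 16 of 27 had a ligand of this pair.

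The targets were led by Heyl, a Hey-family repressor known as a Notch3 target of mural cells. It stood at 327.3 CPM in pool A and 442 CPM in pool B of the smooth muscle-like class, where 93.8% and 99.3% of cells had a count. The median cell held 258.8 and 371 CPM, and the highest cell carried 1.75% and 1.80% of the counts. Per kilobase Heyl stood at 75.3 ± 15.9 CPM, Hes1 at 17.9 ± 2.8 CPM, Hey2 at 12.9 ± 0.23 CPM and Hey1 at 1.79 ± 0.33 CPM (SD, n = 2 pools), and in this order no neighbours overlapped. Each of the first 3 exceeded every receptor per kilobase in both pools. Hey2, known as an arterial Hey gene, was counted in 54.5% and 67.8% of smooth muscle-like wells and Hes1, the founding Hes target, in 47.1% and 46.8%. Hey1, the Hey gene of arterial endothelium, was counted in 5.84% and 10.9%. Of the 575 wells, 1.22% had a count of none of the 4 targets, 20.35% of 1, 46.4% of 2, 29.04% of 3 and 2.96% of all 4.

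Outside smooth muscle the targets were less evenly spread. Heyl stood at 69.1 and 240.9 CPM in fibroblast-like wells, 21.1% and 54.5% of its smooth muscle level, beside the 2.50% and 5.97% of Myh11 and the 17.2% and 39.1% of Acta2; the part of smooth muscle RNA in that level was not tested. Every fibroblast-like well of pool B had a Heyl count, but 10 of 28 reached 100 CPM. In the 27 endothelial-like wells Heyl stood at 3.88 CPM in pool A and 225.7 CPM in pool B. The 2 wells at 100 CPM or more had both Rgs5 and Kcnj8, a potassium channel subunit of pericytes, at that level. Summed Kcnj8 of the 6 unnamed wells, however, lay below that of smooth muscle-like wells in both pools. Vtn, the leading gene of the 6 unnamed wells, was at 1805 ± 116.2 CPM there (SD, n = 2 pools). In the 27 wells Vtn was at 16.49 ± 18.26 CPM. The part of mural RNA in the Heyl of the 27 wells was not tested. The 6 unnamed wells held Heyl at 551 and 829 CPM, with 5 of 6 between 338.7 and 1006 CPM and 1 at 6.80 CPM. The last of these wells had Dcn at 6831 CPM and Rgs5 at 47.6 CPM. Hey2 reached 60.1 and 58.6 CPM in smooth muscle-like wells, 8.70 and 1.75 CPM in fibroblast-like wells and 41.5 and 133.2 CPM in the 27 endothelial-like wells. Hey1 stood at 171.5 and 34.6 CPM in those wells, and at 6.62 and 5.09 CPM in smooth muscle-like wells. Hey1 and Hey2 reached 100 CPM in 5 endothelial-like wells each and in no well together. All 5 Hey2 wells had von Willebrand factor (Vwf) at 100 CPM or more, which 7 of the 27 had. Car4, a carbonic anhydrase of capillary endothelium, reached that level in 8 of the 11 Dll4 wells and in 17 of the 27, which are close shares. Hes1 was present in every class, at 40.5 and 32.5 CPM in smooth muscle-like wells, 37.2 and 51.5 CPM in fibroblast-like wells and 60.8 and 96.7 CPM in endothelial-like wells.

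The classes were then compared over the 2 pools with edgeR's quasi-likelihood test on summed counts, with the pool as a block and Benjamini-Hochberg adjustment over 7086 tested genes; all 10 genes passed the filter on low counts. The tested genes had no part in the clustering, but the same cells formed the classes, and with 2 pools the error covers only the spread between these pools. The endothelial-like class in these tests is the cluster of 33 wells. Where pools are said not to overlap, this is a description only. The share of all tested genes with such pools was not counted, and 2 values can lie apart from 2 others without a difference between classes.

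Between smooth muscle-like and endothelial-like wells, 2 of the 10 genes passed an adjusted p of 0.05, both lower in smooth muscle, beside 4.35% of all tested genes called and 2.72% called lower. Dll4 differed by a log2 fold change of -10.62 ± 1.21 (SE; edgeR adjusted p = 0.0066), and the ratio of summed levels was 1603 with a counting interval of 967 to 2876. Notch1 was lower by -4.46 ± 0.81 (adjusted p = 0.0362). With the 6 unnamed wells apart, Notch3 lay at -1.38 (adjusted p = 0.451) and Heyl at 3.10 (0.214), against -2.89 and 0.84 with them. Dll4 and Notch1 kept their calls when the 6 unnamed wells were apart, at adjusted p = 0.0041 and 0.019. The threshold was missed by Notch2 at 4.54 ± 1.02 (edgeR adjusted p = 0.0697), Notch3 at -2.89 ± 0.76 (0.107) and Notch4 at -6.31 ± 1.71 (0.117). Hey1 at -3.85 ± 2.18 (0.382) and Hes1 at -0.78 ± 0.66 (0.581) missed it too. For each of these genes the pools did not overlap. The remaining log2 fold changes were 0.84 ± 0.38 for Heyl, -0.32 ± 1.02 for Hey2 and -1.64 ± 0.74 for Jag1, with overlapping pools. Without the block on pool, Notch1 was not called and Dll4 was.

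Between endothelial-like and fibroblast-like wells, 2 of 10 genes were called, both higher in the endothelial-like cluster, beside 3.73% of all tested genes called and 1.93% called higher. Dll4 differed by 9.39 ± 1.24 (adjusted p = 0.0152), a ratio of 721 with a counting interval of 198.9 to 5958 that rests on 2 fibroblast-like counts. Notch3 differed by 5.49 ± 0.89 (adjusted p = 0.0287). With the 6 unnamed wells apart the Notch3 difference was 3.99 (adjusted p = 0.102) and no longer passed, and Notch1 passed instead, at 3.68 (adjusted p = 0.0493). In the cluster of 33 wells Notch1 lay at 3.43 ± 0.81 (0.0847) and Notch2 at -4.25 ± 1.03 (0.0892). Notch4 (4.75 ± 1.78), Hey1 (3.36 ± 2.56) and Hey2 (3.71 ± 1.2) likewise had pools that did not overlap and missed the threshold, whereas Jag1, Hes1 and Heyl overlapped.

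Between smooth muscle-like and fibroblast-like wells none of the 10 genes was called, beside 3.08% of all tested genes (1.26% higher and 1.82% lower in smooth muscle). An unadjusted edgeR p under 0.05 was reached by 3 of the 10, beside 1071 of all 7086 tested genes. DESeq2 called these 3, beside 767 of 6811 genes (11.3%). They were Heyl at 1.46 ± 0.39 (edgeR adjusted p = 0.14), Notch3 at 2.60 ± 0.80 (0.199) and Hey2 at 3.40 ± 1.12 (0.233), and for each the pools of the classes did not overlap. The within-pool differences of Heyl were 2.13 in pool A and 0.76 in pool B, those of Notch3 4.07 and 1.62, and those of Hey2 2.67 and 4.91. Jag1 and Hes1 lay at -1.08 ± 0.72 and -0.35 ± 0.65.

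**Figure D3:**
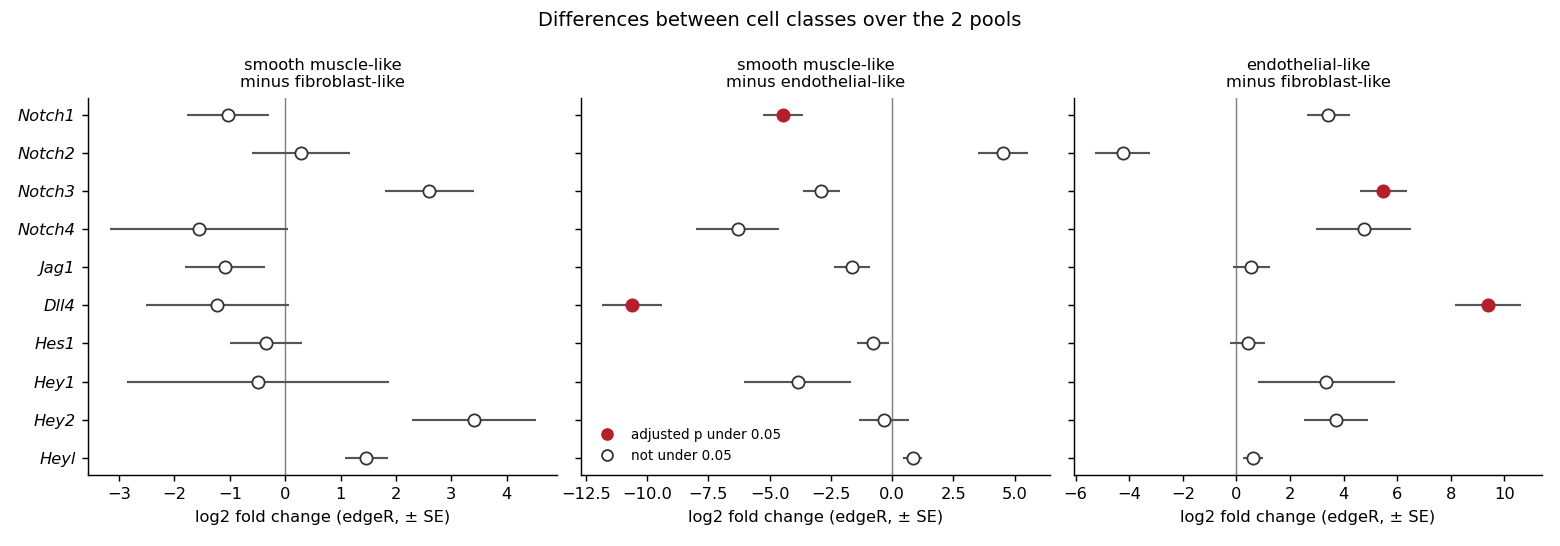
log2 fold change (edgeR, n = 2 pools), with an SE derived from its F statistic, of the 10 genes in the 3 class comparisons. The first class named is the one in which positive values are higher. Filled points passed an adjusted p of 0.05: Dll4 and Notch1 against endothelial-like wells, Dll4 and Notch3 for endothelial-like against fibroblast-like wells, and none for smooth muscle-like against fibroblast-like wells.

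The wider pathway was read from lists of 58 genes, 10 of them the genes above, of which 48 were tested in each comparison. Against fibroblast-like wells no listed gene was called in smooth muscle-like wells, and the median log2 fold change of the 48 was -0.08 beside 0.18 for all tested genes. Against endothelial-like wells 1 was higher and 4 lower in smooth muscle-like wells (median -0.75 beside 0.28), and between endothelial-like and fibroblast-like wells 4 were higher and 1 lower (median 0.60 beside -0.11). Over all tested genes the shares called were 3.08%, 4.35% and 3.73% in these comparisons. The called genes were the ligand Jag2, the feedback regulator Nrarp, the trafficking adaptor Numbl, and Dll4, Notch1 and Notch3. Jag2 stood at 129.1 and 87.8 CPM in the endothelial-like cluster, 3.02 and 1.19 CPM in smooth muscle-like wells and 2 counts in fibroblast-like wells. Its log2 fold change in smooth muscle-like minus endothelial-like wells was -5.76 ± 0.98 (edgeR adjusted p = 0.0292). Nrarp, induced by Notch and known to damp it, stood at 111.4 and 39 CPM in the cluster against 1.66 and 0.666 CPM in smooth muscle-like wells (-5.94 ± 1.17, adjusted p = 0.0466), and fibroblast-like wells held 1 count. Numbl, a relative of the Notch inhibitor Numb, went the other way, at 0.455 and 0.722 CPM in the cluster, 36.02 and 30.4 CPM in smooth muscle-like wells (5.86 ± 0.95, adjusted p = 0.0239) and 99.6 and 67.5 CPM in fibroblast-like wells. Against fibroblast-like wells Jag2 was called at adjusted p = 0.0165, Nrarp at 0.0253 and Numbl at 0.0168 by edgeR, with ratios of 604 (counting interval 166.6 to 4993), 890 (159.2 to 35220) and, toward fibroblast-like wells, 156.8 (61.1 to 577).

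By list, 1 of 4 receptors, 2 of 3 tested ligands (of 5), 1 of 11 ligand and receptor trafficking genes and 1 of 4 other vascular Notch targets were called in each comparison with the endothelial-like cluster, where 4.35% and 3.73% of all tested genes were called; with lists this short nothing particular to a list is read from its count. None was called among 9 tested receptor cleavage genes (of 10), 5 receptor glycosylation genes, 7 genes of the nuclear complex and 5 tested Hes and Hey targets (of 9); none of 3 non-canonical ligands passed the filter. In smooth muscle-like wells the highest receptor cleavage genes per kilobase were Psenen (62.9 ± 8.2 CPM, SD, n = 2 pools) and Ncstn (22.3 ± 5.1), subunits of gamma-secretase. Among glycosylation genes Rfng (17.5 ± 1.9) and Poglut1 (14.3 ± 0.99) led, and among trafficking genes the Deltex family member Dtx3 (49.8 ± 0.19) and Numb (7.01 ± 0.85). The coactivator Maml2 (10.6 ± 3.7) and Snw1 (10.4 ± 0.18) led the nuclear complex, Grip2 (6.30 ± 2.4) and the ephrin ligand Efnb2 (3.24 ± 1.9) the other vascular targets. Hes6 (25.7 ± 2.9 CPM per kilobase) was second to Heyl among Hes and Hey genes, Jag2 (0.303 ± 0.19) second to Jag1 among ligands, and Dlk2 (0.0106) and Dlk1 (0.0050) were close to absent.

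Within smooth muscle-like wells 8 clusters were described by their leading genes. Only 4 had at least 15 cells in each pool, those led by Bcl6, Mylk4, Rgs5 and Fosb, and over these edgeR called 0 of 7532 genes (0.0%), with 2.89% at an unadjusted p under 0.05. Of 9 Notch genes tested, Notch4 had the lowest unadjusted p (0.133; adjusted p = 1.0) and Heyl the next (0.188). The other clusters are given as values. Heyl was highest in the cluster led by Tnnt2, the cardiac troponin T gene, at 547 CPM in pool A and 602 CPM in pool B, with a count in all 14 and 38 cells. It was lowest in the cluster led by Msx2, a homeobox gene, at 170.3 CPM in pool A and likewise below the other 7 in pool B, with 7 and 10 cells, where 1 cell carried 75.9% and 45.4% of the counts. The cluster led by Rgs5 held 249.2 CPM in pool A and was second lowest in pool B. The same Msx2 cluster held Notch3 at 2.84 and 1.57 CPM, against medians over the 8 clusters of 42.6 and 18.5 CPM, while its Notch2 stood at 85.7 and 72.02 CPM, of which 1 cell carried 74.4% and 50.7%. It also held the lowest Hey2 of the 8 clusters in each pool, at 33.7 and 26.6 CPM. In pool B Notch3 was as low in the clusters led by Acan (1.70 CPM) and Slc39a14 (1.203 CPM), and the latter had the highest Notch3 in pool A (68.8 CPM).

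**Figure D4:**
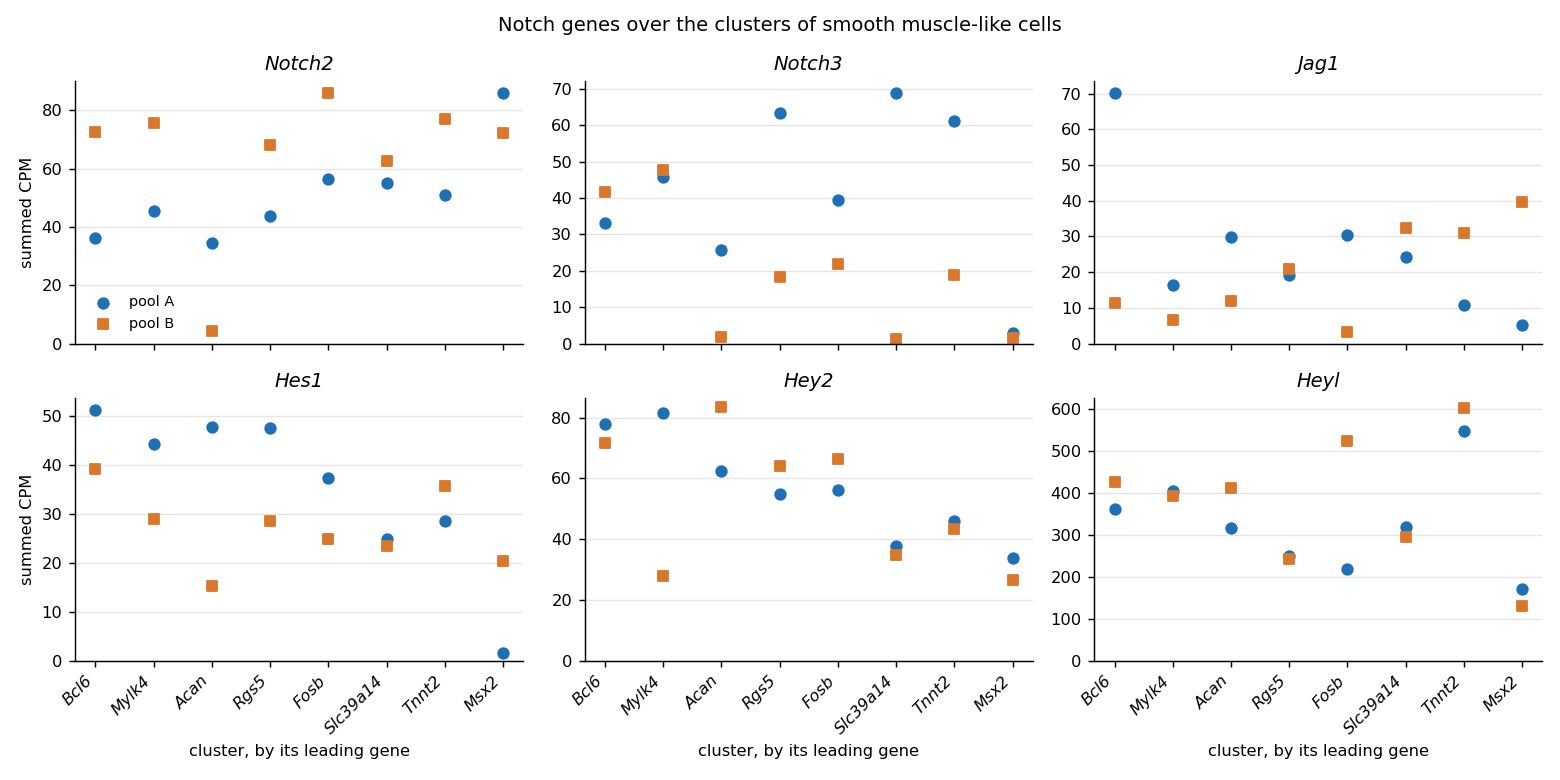
Summed CPM of 6 genes in the 8 clusters of smooth muscle-like wells, each named by its leading gene; circles are pool A and squares pool B. Heyl is highest in the Tnnt2 cluster (547 and 602) and lowest in the Msx2 cluster in both pools, while Jag1 is highest in the Bcl6 cluster in pool A and in the Msx2 cluster in pool B.

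The cell-level link of Notch3 to its targets was close to 0. Over smooth muscle-like wells thinned to 50000 counts, Pearson's r of log2(CPM + 1) between Notch3 and Heyl came to 0.046 (pool A) and 0.035 (pool B), over 575 cells in all. Between Notch3 and Hes1 it was 0.054 and -0.038, between Notch3 and Hey2 0.067 and 0.0047, and between Notch3 and Hey1 -0.067 and -0.047. These are descriptions over cells of a pool that share mice and depth, and carry no p. In counts, Notch3 and Heyl were found together in 22.7% of thinned pool A cells and 16.9% of pool B cells, and the products of their separate shares were 22.2% and 16.5%. Notch3 and Hes1 were found together in 9.74% and 4.49%, with products of 8.77% and 5.21%. Only 27.3% and 17.6% of the thinned cells had a Notch3 count.

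Other receptors gave values of the same size. Notch2 and Heyl had r of 0.083 and -0.060, and Notch1 and Heyl -0.047 and 0.047. Among targets, Hey2 and Heyl had 0.115 and 0.066, the only target pair of the 3 computed (with Hes1 and Heyl, and Hes1 and Hey2) that was positive in both pools. Given the log number of genes detected per cell, its values were 0.059 and 0.045. Jag1 and Heyl had 0.151 in pool A and -0.059 in pool B. All of these are weak and none is read as a link.

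**Figure D5:**
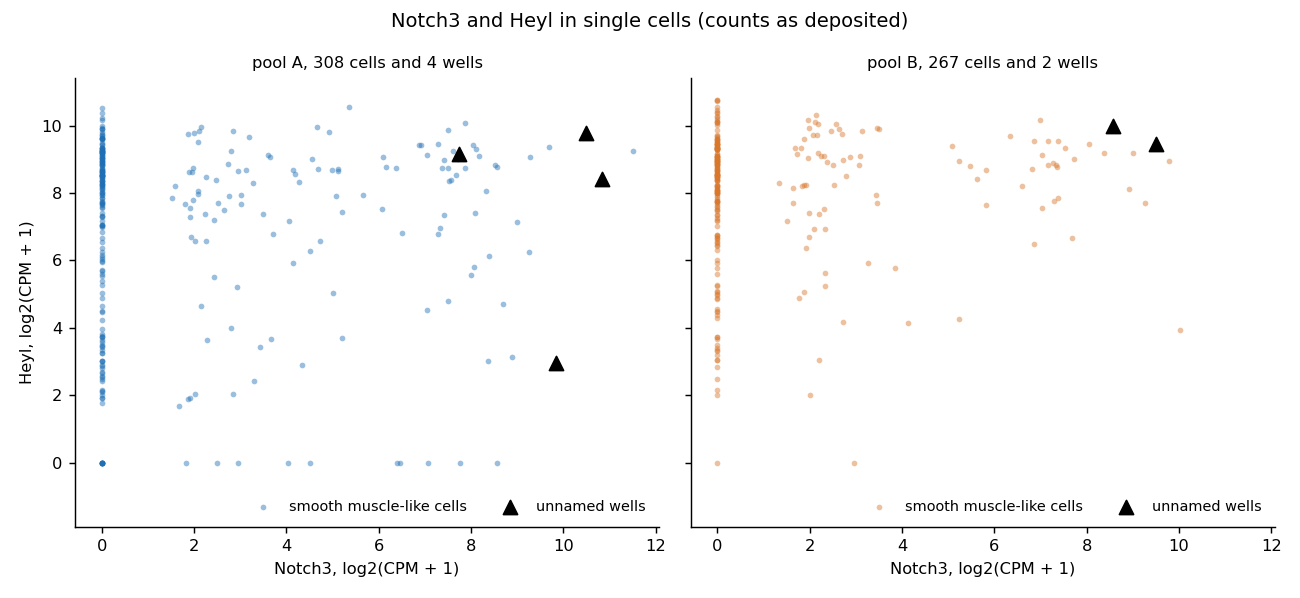
Heyl against Notch3, both as log2(CPM + 1) of the deposited counts, in single smooth muscle-like wells (small points) and the 6 unnamed wells (triangles) of pool A and pool B. Cells without a Notch3 count lie along the left edge and most of them hold Heyl; 5 of the 6 triangles hold between 338.7 and 1006 CPM of Heyl.

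The genes most like each member over smooth muscle-like wells were ranked by the lower of the 2 within-pool r, among 6413 genes with a count in at least 20% of thinned cells in both pools. Heyl was most like Bcam, a laminin-binding adhesion molecule (0.337 and 0.267), then Tm4sf1 (0.287 and 0.252), the antisense transcript Gm15851 (0.252 and 0.273), the myosin phosphatase inhibitor Ppp1r14a (0.230 and 0.255) and the matricellular gene Postn (0.274 and 0.227). Rgs5 stood near the other end of that ranking, 6377th of 6412 with a lower r of -0.160, whereas 5 of the 6 unnamed wells held both at 100 CPM or more. Notch3 had weaker matches: Rere (0.155 and 0.179), Adgrl1, Atp6v0a2, Prps2 and Atp9a, the last with 0.128 and 0.159. Heyl was 658th of 6413 genes in likeness to Notch3, Hey2 1623rd and Hes1 3643rd, and the median gene had a lower r of -0.029. The genes most like Hes1 were BC017158 (0.166 and 0.165), Rbm22, Eef2kmt, Bckdha and Cir1. Those most like Jag1 were Llgl1 (0.187 and 0.154), Rgma, Slc5a3, Ufc1 and Gstk1. The highest of so many weak values can reach the sizes seen for Notch3, Hes1 and Jag1 without a link, and this was not tested. Notch3 and Jag1 were themselves under the 20% in thinned pool B cells, at 17.6% and 19.1%.

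Antisense or overlapping genes are annotated within Notch1, Notch2, Notch3, Notch4 and Dll4, and this protocol does not mark strand. For example, the opposite-strand gene 0610009E02Rik held 906 counts beside 6292 of Notch1, and Gm14207 held 88 beside 985 of Dll4. The part of such reads in the members' own counts was not tested.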

How the data were processed

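The deposited table gives whole-number read counts per gene and cell, made by the authors, for 367 wells of pool A and 308 of pool B. Bcl2fastq, Bowtie2, Subread and featureCounts are listed, with GRCm38, per the submitters' processing notes (versions not given in the sources used here). Gene symbols and exon lengths came from GENCODE M21; 512 identifiers had no symbol there and held 0.217% of counts. Cells were clustered with scanpy 1.11.5 (Leiden, resolution 1.0, 20 components) on 23274 genes, with all markers and none of the Notch lists. The rest of these were chosen by a hash of the gene symbol, or of the identifier where there was no symbol. A further 23206 genes could be tested. No doublet caller was run. Smooth muscle-like wells numbered 308 and 267. Classes were named from markers: all 8 smooth muscle markers at 50% or more of their median over clusters, or otherwise the type with the highest mean log2 fold and at least 3 markers at 100 CPM; clusters under 10 cells stayed unnamed. Counts were summed per class and pool and tested with edgeR 4.0.16 (filterByExpr, TMM, pool as a block, all 3 classes in a single fit). Each SE was derived from the test, as the absolute log2 fold change divided by the square root of the F statistic. The pool gives the pairing, since by the labels its wells share their mice, and their titles share a prefix that was read as a plate. The pool differences correlated over 7086 genes at r = 0.174, 0.15 and 0.0572 between classes. Genes were named by rule: the 10 members, called pathway genes (up to 6 of largest change per comparison), the 2 highest per list, the 5 most alike genes for Notch3, Heyl, Hes1 and Jag1, and class markers. Genes of the wells (Vwf, Car4, Kcnj8, Higd1b, Vtn) and cluster leaders were added after values were seen. Members and lists were chosen with earlier results of these data known. The fit was tested on simulated data. DESeq2 1.42.0 and other settings were alternatives.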

Additional observations from a re-analysis of the deposited data

How the results depend on the processing

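The exclusion of wells with markers of a foreign cell type, and the separate account of the 6 unnamed wells, were chosen after seeing the data. Genes called were 3.08% of those tested (smooth muscle-like over fibroblast-like), 4.35% (smooth muscle-like over endothelial-like) and 3.73% (endothelial-like over fibroblast-like), and their number stayed within 1.5 times except as follows. With no filter on low counts 3.10%, 4.36% and 4.68% of more genes tested, 412, 580 and 622 genes, were called. With the DESeq2 Wald test the shares were 11.3%, 16.1% and 18.1% (767, 1094 and 1236 genes), and with only the 2 classes compared 7.12%, 6.26% and 1.74%. With clustering on all genes but the Notch lists the first was 1.59%.

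Members called moved with them. In the first comparison (0) they were 2 with no filter, 2 with only the 2 classes compared, 3 with DESeq2 and 1 (Notch3) with deeper cells alone. In the second (2) they were 5 with no filter, 5 with only the 2 classes, 5 with DESeq2, 4 with deeper cells alone, 3 (with Notch2) with thinned cells and 1 (Dll4) with no replicate block. In the last (2) they were 5 with no filter, 6 with DESeq2, 4 with thinned cells, 3 (with Notch4) with deeper cells alone and 1 (Dll4) with only the 2 classes. At Leiden resolution 1.5 and with clustering on all genes they were Dll4 and Notch1. Leaving out the block changed no other member's call. The Notch3 call in the last comparison was lost at Leiden resolution 1.5, with clustering on all genes, with thinned cells and with only the 2 classes. Dll4 was called under each alternative in both endothelial-like comparisons.

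With both pools, log2 fold changes turned sign 7 times, none of them a called value. In the first comparison Notch4 was 1.84 with deeper cells and Hey1 1.68 with only the 2 classes compared. In the second Hey2 was 4.74 with clustering on all genes and 0.07 with deeper cells. In the last comparison Hey2 was -1.40 and Heyl -0.84 with clustering on all genes, and Heyl -1.38 at Leiden resolution 1.5. The endothelial-like class held 14 and 8 wells in the former setting and 16 and 11 in the latter, beside 20 and 13. The 6 unnamed wells were outside it in both settings. With clustering on all genes 5 more wells (2 and 3), led by Cd24a, were also outside it, as a cluster too small to be named. Between these settings Hey2 turned sign in the former alone. The cause of the sign changes was not tested. DESeq2 size factors moved the median gene from 0.18 to 0.05 and from 0.28 to 0.08 in the smooth muscle-like comparisons and turned no member. Within single pools no test was possible, and further uncalled values turned sign there. In the first comparison these were, in pool A alone, Notch1 (0.26), Notch4 (1.88), Dll4 (1.04), Hes1 (0.01) and Hey1 (6.74), and in pool B alone Notch2 (-0.36). In the second it was Hey2 in pool A alone (0.87).

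The mean r of Notch3 with Heyl (0.040) was 0.050 without thinning and 0.032 without foreign wells, and with Hey1 -0.077 without thinning. As means over cells, Notch1 (407) and Hes1 (95.1) in the endothelial-like cluster, Notch3 in fibroblast-like cells (12.7) and Hey2 in smooth muscle-like cells (58.2 CPM) moved by more than the pool spread.

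Depth limits the rare genes: in fibroblast-like cells 3 counts equal 0.450 and 0.750 CPM in pools A and B.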
